A study of Mus musculus with 4 samples.

Results

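The Hedgehog pathway was followed through 10 genes of adult mouse bone marrow stroma, taken as the rows of the count table whose symbol is Shh, Ihh, Dhh, Ptch1, Hhip, Smo, Sufu, Gli1, Gli2 or Gli3. All 10 were found, each once, among 56980 listed genes. The libraries were made from 100 sorted mesenchymal stromal cells (MSCs) each, 1 library from each of 4 wild-type male C57BL/6J mice from an in-house colony, aged 14 weeks. The gate took cells negative for CD45, Ter119, CD31 and Sca1 and positive for CD51 and PDGFRa. The labels name no transgene and no treatment, and all 4 libraries form one group, so no conditions were compared and the question here is what such cells express at steady state.

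In the Hedgehog pathway a secreted ligand binds the receptor Patched, which otherwise holds back the membrane protein Smoothened at the primary cilium. Once released, Smoothened frees the GLI transcription factors from the inhibitor SUFU and from processing into repressors. GLI1, PTCH1 and HHIP are transcribed in response to the signal, so their transcripts are widely used as a readout of it. In bone, Indian hedgehog from growth plate chondrocytes acts on osteoblast progenitors, and Gli1 marks a population of stromal progenitors in mice that carry a reporter at that gene.

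The libraries held between 22738604 and 43545349 counts on genes and between 16109 and 18907 genes above 0. Expression is given as TPM, the count per base of merged exon scaled to 1000000 in each library, so that levels of different genes can be compared. A library of 100 cells is one draw from the marrow of one mouse, and fewer cells with a transcript and less transcript per cell cannot be told apart in it. Of the genes of the sort antigens, Pdgfra was between 30.7 and 48.2 TPM and Itgav, which encodes CD51, between 12.9 and 18.1 TPM. Ptprc (CD45) and Pecam1 (CD31) stayed at or below 0.26 TPM. Ly6a (Sca1) was near 0 in mice 1 and 3 but reached 8.95 TPM in mouse 2 and 11.6 TPM in mouse 4. Osteoblast transcripts were abundant in every library. The 4 genes listed for that cell type gave 77792 to 168024 TPM together, most of it from Bglap. The 6 niche MSC genes, Cxcl12 among them, gave 1052 to 4534 TPM and the 4 genes listed for adipocytes 199 to 962 TPM, both highest in mouse 2. Most of the first sum was Cxcl12, with 4329 TPM in mouse 2, and most of the second was Adipoq and Lpl. Of the niche MSC genes, Prrx1 was lowest in mouse 2, at 10.6 TPM, and the others were highest there. All of these are part of the 1000000 to which a library is scaled. Which cells carried the Hedgehog transcripts was not tested. The numbers that the header gives to the libraries place mice 1 and 3 close to each other, 3 apart, and mice 2 and 4 close to each other, 1 apart, with a step of 11 between these pairs. What the numbers stand for is not given in the sources used here. The libraries of mice 1 and 3 were also the deeper ones.

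No ligand transcript was counted. Shh (ENSMUSG00000002633), Ihh (ENSMUSG00000006538) and Dhh (ENSMUSG00000023000) had 0 counts in each of the 4 mice. Sonic, Indian and Desert hedgehog are the whole set of mammalian ligands, and none was detectable at this depth in the unique counts. A limit of 3 counts corresponds to at most 0.102 TPM for Shh, 0.0952 TPM for Ihh and 0.066 TPM for Dhh in the shallowest library. A count of 0 in every mouse was not rare. It was found for 51% of the 52125 genes with a length and for 29.4% of the 21922 protein-coding ones. Col10a1, the defining collagen of the hypertrophic chondrocytes that adjoin the Ihh-producing cells of the growth plate, had 1 count in mouse 4 and 0 in the others. Pth1r, the other gene listed for those cells and one that osteoblasts also express, was between 151 and 314 TPM. Of the markers of Schwann cells, a source of Dhh in nerve, Sox10 had 1 count in all, while S100b, which chondrocytes also express, was between 14.3 and 67.2 TPM. Parts of these genes are shared with others. Exons of other genes cover 12.4% (Rhebl1) and 25.2% (Gm49442) of the exonic bases of Dhh and 12.7% (Gm26894) and 15.7% (9530036O11Rik) of those of Shh. Rhebl1 had 247, 0, 309 and 385 counts. Stretches at least 95% identical to transcripts of other genes cover 28.3% of the longest Shh transcript, 26.2% of that of Dhh and none of that of Ihh. Overlapping genes were not left out of that search, so these may be the same bases as the exon overlaps. Whether reads of Shh or Dhh were lost there was not tested. All 3 are minus-strand genes in GRCm38, Ihh at chr1:74945315-74951672, Shh at chr5:28456815-28467256 and Dhh at chr15:98891152-98898540.

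The receptor was present in every library. Ptch1 (ENSMUSG00000021466; GRCm38 chromosome 13, from 63508328 to 63573598, minus strand) encodes Patched1, which binds the ligands and restrains Smoothened. The libraries of mice 1 to 4 gave it 522, 1069, 1251 and 720 counts. On the TPM scale this was 2.09, 6.77, 5.10 and 4.91. The mean was 4.72 ± 1.94 TPM (SD, n = 4 mice), with mouse 1 lowest. The SD was 41.1% of the mean. Counting error alone would give 3.44%, and the median of this measure over genes averaging 1 to 10 TPM was 89.6%.

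Smo (ENSMUSG00000001761; GRCm38 chromosome 6, from 29735503 to 29761365, plus strand), which encodes the transducer Smoothened, was the highest of the 10 genes. Counts of 1094, 1425, 1052 and 698 gave 11.1, 22.8, 10.8 and 12.0 TPM in the order of the mice, and the mean was 14.2 ± 5.77 TPM (SD, n = 4). Mouse 2 stood above the other 3, which lay from 10.8 to 12.0 TPM. Of all genes with a length, 90.5% had a median below the 11.5 TPM of Smo. Smo exceeded Ptch1 in 4 of 4 mice, by 5.29, 3.36, 2.12 and 2.45 times in TPM.

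The inhibitors of the pathway differed in how evenly they were found. Sufu (ENSMUSG00000025231; GRCm38 chromosome 19, from 46396896 to 46488804, plus strand) encodes the protein that holds GLI factors in the cytoplasm. It had 1455, 1250, 584 and 231 counts, or 10.8, 14.6, 4.39 and 2.91 TPM, a mean of 8.17 ± 5.48 TPM (SD, n = 4), and was thus above 1 TPM in every mouse. Hhip (ENSMUSG00000064325; GRCm38 chromosome 8, from 79965851 to 80058006, minus strand) encodes a membrane protein that binds the ligands and removes them, and is itself a target of the pathway. It had 0, 433, 932 and 57 counts, or 0, 4.29, 5.94 and 0.608 TPM. The mean of 2.71 ± 2.87 TPM (SD, n = 4) describes no single library, since mice 2 and 3 were well above it and mice 1 and 4 below 1 TPM. Without mouse 3 it was 1.63 TPM. In mouse 1, the deepest library, 3 counts correspond to 0.0188 TPM.

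Promoter windows, from 250 bases before to 50 bases after the RefSeq start in GRCm38.p6, were at hand for 8 of the 10 genes, all but Shh and Gli1. Those of Ptch1 and Hhip, the genes of this set that answer to GLI factors, are shown with that of Dhh, which had no count, because they were searched for the GLI motif. Capitals mark each CG dinucleotide, and sequences run 5′ to 3′ on the strand of the gene.
Ptch1 (minus strand, chr13:63565686-63565985): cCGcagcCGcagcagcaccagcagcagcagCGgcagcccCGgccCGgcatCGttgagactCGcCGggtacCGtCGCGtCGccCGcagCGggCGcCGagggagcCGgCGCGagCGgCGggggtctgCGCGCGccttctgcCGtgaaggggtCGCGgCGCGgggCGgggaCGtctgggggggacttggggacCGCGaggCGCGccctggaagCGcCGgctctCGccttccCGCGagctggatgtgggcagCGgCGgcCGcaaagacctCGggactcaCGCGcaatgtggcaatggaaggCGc
Hhip (minus strand, chr8:80057959-80058258): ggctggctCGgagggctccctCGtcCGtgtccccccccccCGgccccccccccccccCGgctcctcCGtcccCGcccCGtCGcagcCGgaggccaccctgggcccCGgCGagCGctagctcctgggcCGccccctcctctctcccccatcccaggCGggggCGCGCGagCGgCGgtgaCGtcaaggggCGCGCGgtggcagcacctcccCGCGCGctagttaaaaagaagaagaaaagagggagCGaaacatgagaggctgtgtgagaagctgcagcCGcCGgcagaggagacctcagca
Dhh (minus strand, chr15:98898491-98898790): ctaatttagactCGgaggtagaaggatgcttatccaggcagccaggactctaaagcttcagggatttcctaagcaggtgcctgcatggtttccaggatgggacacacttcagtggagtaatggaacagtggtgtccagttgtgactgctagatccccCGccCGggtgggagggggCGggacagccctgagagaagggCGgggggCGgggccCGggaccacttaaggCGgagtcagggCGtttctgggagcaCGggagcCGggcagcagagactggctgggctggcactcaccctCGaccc
The motif GACCACCCA and its core CCACCCA, which is part of it, were searched on both strands. Neither was found in any of the 8 windows, which says only that these letters are not in them. Of all 32851 promoter windows in the table, 0.253% hold the full motif and 9.3% the core. The RefSeq start of Ptch1 lies 7863 bases inside the GENCODE gene, so other starts of this gene were not covered. The ratio of observed to expected CG dinucleotides, a measure chosen after the levels were seen, was 1.09 for Ptch1, 0.747 for Hhip and 0.438 for Dhh, against a median of 0.384 over all windows. Ihh, with no count, had 0.774, and Smo, the highest gene, 0.504. Sufu had 0.506, Gli2 0.83 and Gli3 1.12. Whether the ratio follows the levels was not tested.

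Among the GLI factors, Gli3 was found in every library, Gli2 at a sizeable level in mice 1 and 3, and Gli1 hardly at all. Gli1 (ENSMUSG00000025407; GRCm38 chromosome 10, from 127329882 to 127341974, minus strand) encodes the activator whose own transcription depends on the signal. It had 14, 0, 9 and 0 counts in mice 1 to 4. These correspond to 0.159 TPM in mouse 1, with an exact 95% Poisson interval from 0.0871 to 0.267 TPM, and 0.104 TPM in mouse 3, with an interval from 0.0477 to 0.198 TPM. In mice 2 and 4, 3 counts correspond to 0.054 and 0.0581 TPM, below both values. The intervals cover counting error only. The mean was 0.0659 ± 0.0793 TPM (SD, n = 4), and 0.0348 TPM without mouse 1. No mouse reached 1 TPM, and the median of 0.0521 TPM was below the median of all protein-coding genes, 0.135 TPM.

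Gli2 (ENSMUSG00000048402; GRCm38 chromosome 1, from 118834132 to 119053619, minus strand) encodes the main activator at the start of the response. It had 649, 1, 1245 and 30 counts, or 5.37, 0.0131, 10.5 and 0.423 TPM, and its mean of 4.07 ± 4.92 TPM (SD, n = 4) had an SD larger than itself. Without mouse 3 the mean was 1.94 TPM. Gli3 (ENSMUSG00000021318; GRCm38 chromosome 13, from 15463235 to 15730026, plus strand) encodes the factor that is processed into the main repressor. It had 1110, 938, 608 and 124 counts, or 6.58, 8.79, 3.67 and 1.25 TPM, a mean of 5.07 ± 3.30 TPM (SD, n = 4). Gli3 thus made up 54.3%, 99.9%, 25.7% and 74.8% of the summed GLI TPM in mice 1 to 4, and Gli2 44.3%, 0.149%, 73.5% and 25.2%. The remainder, 1.32% in mouse 1 and 0.731% in mouse 3, was Gli1. Gli3 exceeded Gli1 by 41.3 times in mouse 1 and 35.2 times in mouse 3. In mice 2 and 4, where Gli1 had 0 counts, Gli3 was 163 and 21.5 times the level of 3 Gli1 counts. Ptch1, another transcript that responds to the signal, was 13.1 and 48.9 times Gli1 in mice 1 and 3. In mice 2 and 4 it was 125 and 84.5 times the level of 3 Gli1 counts.

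**Figure D1:**
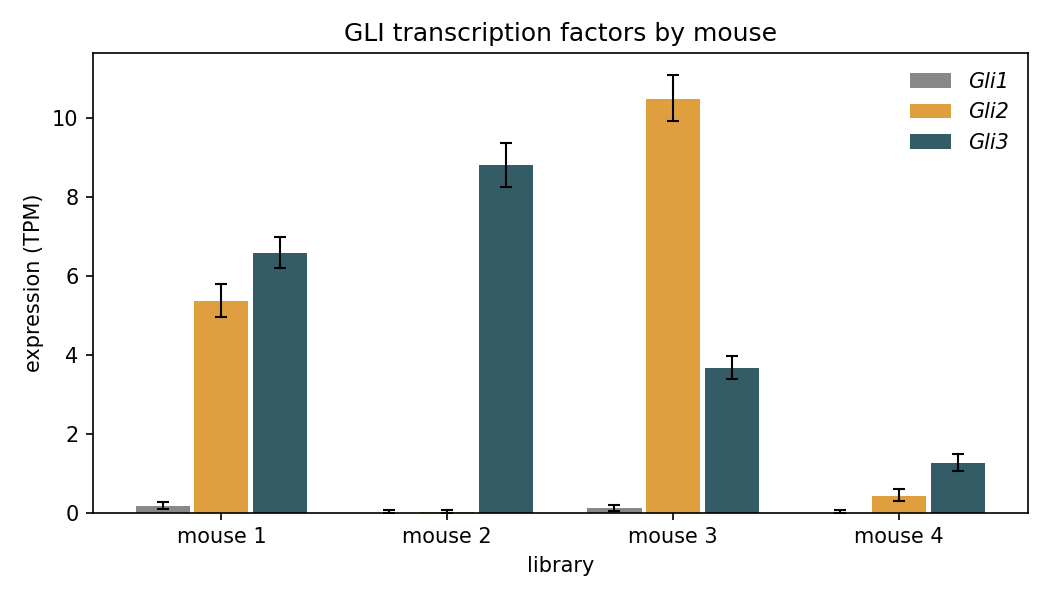
TPM of Gli1, Gli2 and Gli3 in the library of each mouse (bars), with exact 95% Poisson intervals that cover counting error only. Gli3 is present in all 4 libraries, Gli2 reaches 5.37 and 10.5 TPM in mice 1 and 3 and stays below 0.5 TPM in mice 2 and 4, and Gli1 is at most 0.159 TPM.

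The levels of Gli1 and Gli2 fell into the same pairs of mice as the library numbers. Gli2 had a mean of 7.93 TPM over mice 1 and 3 and 0.218 TPM over mice 2 and 4, and Gli1 had 0.132 and 0 TPM. The counting interval of Gli1 in mouse 3 began at 0.0477 TPM. Those of mice 2 and 4, at 0 counts, reached 0.0664 and 0.0715 TPM and so overlapped it. Smo was split the opposite way, from 10.8 to 11.1 TPM in mice 1 and 3 and from 12.0 to 22.8 TPM in mice 2 and 4. This rests on mouse 2, as the counting intervals of mouse 4 (11.1 to 12.9 TPM) and mouse 1 (10.4 to 11.7 TPM) overlap. Ptch1, Hhip, Sufu and Gli3 overlapped between the pairs, with means of 5.12 and 5.02 TPM for Gli3 and 3.60 and 5.84 TPM for Ptch1. Levels without overlap between these pairs, looked for after the values were seen, were common. Of the 25563 genes with a count in any mouse, 18.8% lay higher in mice 1 and 3 and 9.48% higher in mice 2 and 4. Of the 7 Hedgehog genes with a count, 2 and 1 did so. The erythroid markers split as Gli2 did, with sums of 3725 and 1298 TPM in mice 1 and 3 and 21.1 and 270.0 TPM in mice 2 and 4. Of the 3 genes summed none was at 0 in every mouse. Ly6a and the pericyte marker Rgs5 split the opposite way, Rgs5 with 0 TPM in mice 1 and 3 and 29.1 and 2.94 TPM in mice 2 and 4. The other 3 genes listed with Rgs5 did not, since Cspg4 was 2.96, 0.558, 2.08 and 7.49 TPM, Myh11 was counted in mouse 4 alone and Acta2 in none. With 2 libraries in each pair, mouse and library number cannot be told apart, and the part of these markers in the levels of Gli1, Gli2 and Smo was not tested.

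Of the 10 genes, 6 had a median above 1 TPM, the cutoff that the study set for expression, and 4 were above 1 TPM in every mouse. The 6 were Ptch1, Hhip, Smo, Sufu, Gli2 and Gli3, and the 4 were the same without Hhip and Gli2. Among all 52125 genes with a length, 22.9% passed the median cutoff and 15.4% were above 1 TPM in every mouse. Among the protein-coding genes the shares were 44.2% and 30.1%. The median over the 10 genes of their median level was 2.67 TPM. Without mouse 3 the first count fell to 4, as Hhip and Gli2 dropped out. Both had under 3 counts in 1 mouse, which at an average of 1 to 10 TPM held for 47.7% of 8584 genes. The SD of Hhip was 106% of its mean and that of Gli2 121%, more than for 58.1% and 66.9% of these genes. For Sufu and Gli3 it was 67.1% and 65.1% of the mean.

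**Figure D2:**
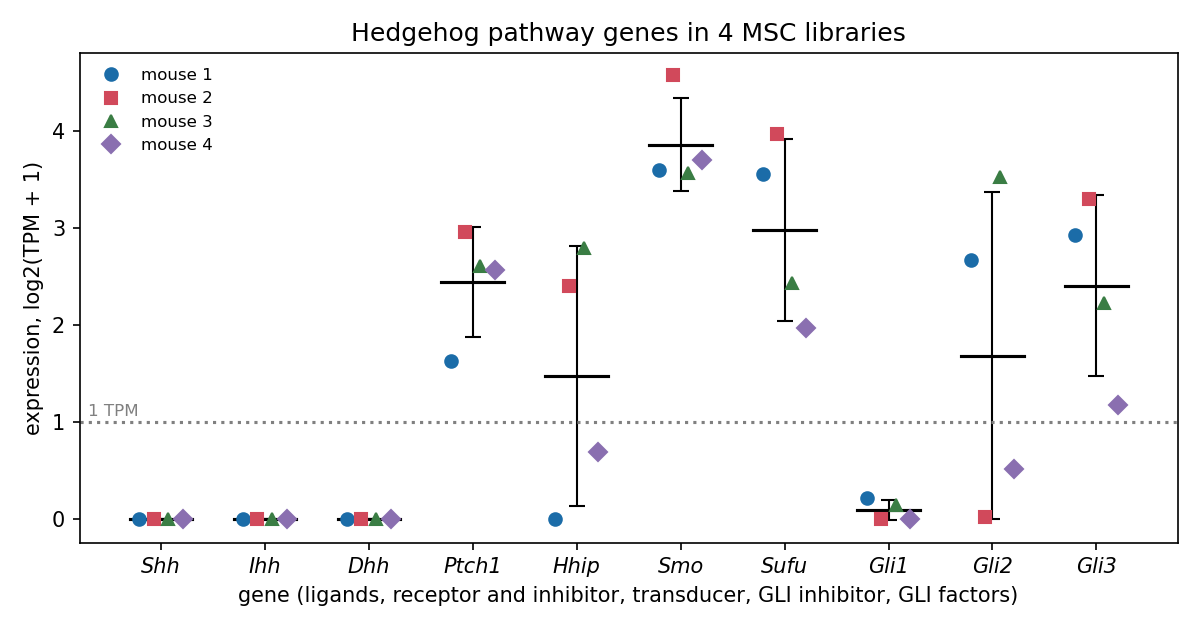
Level of each of the 10 genes in log2(TPM + 1), one point per mouse, with the mean (line) and SD (bars) over the 4 mice and a dotted line at 1 TPM. Ptch1, Smo, Sufu and Gli3 lie above the line in every mouse, Hhip and Gli2 cross it, and Gli1 and the 3 ligands lie below it.

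By median TPM the order was Smo, Sufu, Gli3, Ptch1, Gli2, Hhip and Gli1, followed by the ligands at 0. Smo was above Sufu by 0.88 ± 0.73 (mean ± SD over 4 mice) in log2(TPM + 1) and Sufu above Gli3 by 0.58 ± 0.26, each in 4 of 4 mice and by more than the spread between mice. Neighbours among the next 4 genes did not differ beyond their spread. Gli3 and Ptch1 differed by 0.04 ± 1.14 on average. Ptch1 was the higher in the mean of log2(TPM + 1), and Gli3 in the median and in the mean of TPM. Ptch1 and Gli2 differed by 0.76 ± 2.04, and Gli2 and Hhip by 0.21 ± 2.10. Hhip was above Gli1 in 3 of 4 mice by 1.38 ± 1.38.

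The order of levels was compared within mice for 6 pairs, since both genes of a pair are read from the same library. Ptch1 was below Smo in 4 of 4 mice, by -1.42 ± 0.46 in log2(TPM + 1) (SD, n = 4; exact two-sided sign-flip permutation p = 0.125, adjusted p = 0.188 over the 6 pairs). Sufu was below Smo in 4 of 4 mice by -0.88 ± 0.73, with the same exact p of 0.125 and adjusted p of 0.188. In mouse 1 these genes were nearly level, with Sufu lower by -0.04. This is the smallest p that 4 mice can give. Gli1 was below Gli3 in 4 of 4 mice by -2.31 ± 0.91 and below Gli2 in 4 of 4 mice by -1.59 ± 1.59, each with an exact permutation p of 0.125 and an adjusted p of 0.188. In mouse 2 the difference between Gli1 and Gli2 rested on 0 against 1 count, and without mouse 3 the mean difference was -0.995. For Ptch1 against Hhip the difference was 0.97 ± 0.96, positive in 3 of 4 mice, with p = 0.25 in the exact test and 0.3 after adjustment. For Gli2 against Gli3 it was -0.72 ± 1.90, negative in 3 of 4 mice, with p = 0.625 in the exact test before and after adjustment, less than the spread between mice, and without mouse 2 the mean turned to 0.13, without mouse 3 to -1.40.

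**Figure D3:**
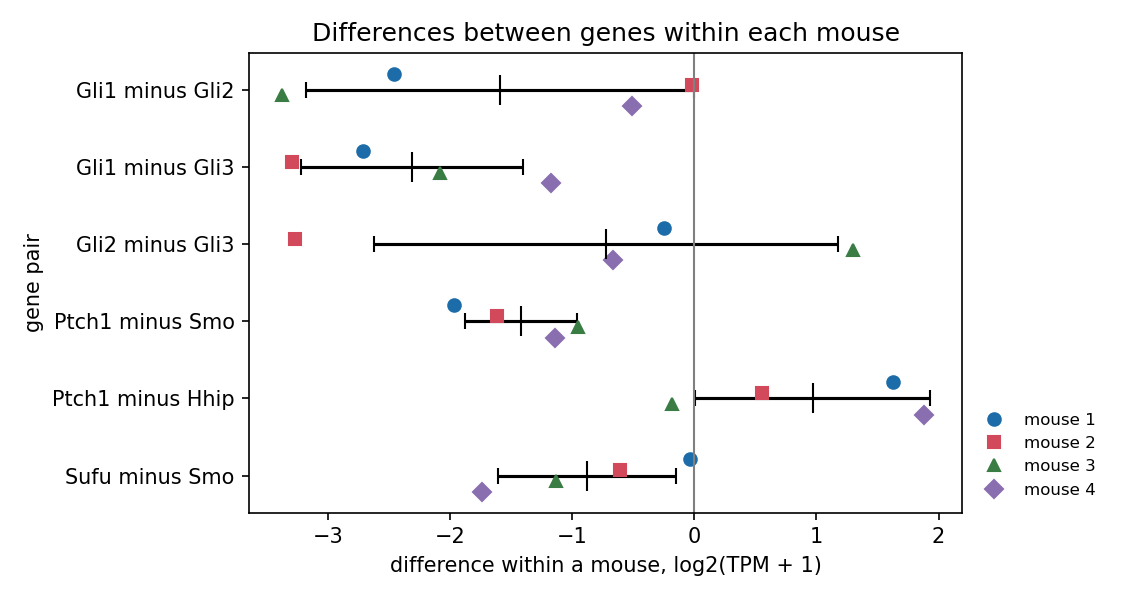
Difference between the genes of each pair within a mouse, in log2(TPM + 1), as one point per mouse with the mean (tick) and SD (bar) over the 4 mice. Smo lies above Ptch1 and Sufu, and Gli3 above Gli1, in all 4 mice, while Gli2 and Gli3 change order in mouse 3.

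The wider pathway was read from a list of 32 genes, of which 19 had a median above 1 TPM and 13 were above 1 TPM in every mouse. Among protein-coding genes these shares were 44.2% and 30.1%, against which the counts of each role below are to be read. Only Foxl1 was at 0 counts in all 4 mice. The median over the 32 genes of their median level was 2.69 TPM. Of the 13, 5 belong to GLI phosphorylation and turnover, 3 to the cilium, 2 each to the co-receptors and the targets, and 1 to ligand release.

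Of 5 genes for release of the ligand, 1 had a median above 1 TPM. Disp1, the transporter that releases the lipid-modified ligand, had 6.95, 13.5, 17.6 and 3.95 TPM in mice 1 to 4. Hhat, which attaches the palmitate, had 3.94, 1.58, 0.266 and 0 TPM. Scube1, Scube2 and Scube3, secreted proteins that carry the ligand off, were each at 0 counts in 2 or 3 of the 4 libraries. Disp1 was thus found in every mouse without a ligand transcript beside it.

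Of 4 co-receptors, 3 had a median above 1 TPM. The co-receptors Gas1 and Boc, which present the ligand to Patched, were found in every mouse. Gas1 had 35.5, 25.3, 21.3 and 20.3 TPM and Boc 25.5, 12.1, 23.4 and 14.7 TPM, so both lay above Ptch1 in each of the 4 libraries. Their relative Cdon had 4.58, 0.0233, 2.15 and 3.54 TPM. The endocytic receptor Lrp2 had 170 counts in mouse 2, 35 in mouse 4 and 0 in mice 1 and 3. Among all genes with a count in any mouse, 9.48% lay higher in mice 2 and 4 without overlap.

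Of 8 cilium genes, 6 had a median above 1 TPM and 3 were above 1 TPM in every mouse. These 3 were Ift88 and Kif3a, which build and serve the cilium, and Arl13b, a GTPase of its membrane, with medians of 2.53, 7.58 and 6.93 TPM. Evc and Evc2, which bind Smoothened at the base of the cilium, had medians of 3.76 and 5.12 TPM, with Evc2 at 0.273 TPM in mouse 1. Kif7, the cilium tip kinesin that acts on GLI factors, had 87, 0, 242 and 0 counts and so was found in the same 2 libraries as Gli1. Of all genes with a count in any mouse, 18.8% lay higher in these libraries without overlap. Gpr161, a receptor that keeps the pathway off, had 148 counts in mouse 2 and 0 in the others.

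Of 7 genes for GLI phosphorylation and turnover, 6 had a median above 1 TPM and 5 were above 1 TPM in every mouse. Spop, the adaptor that brings GLI factors to the Cul3 ligase, had 115, 30.9, 82.1 and 86.0 TPM, the highest median of the 32 genes, and Cul3 had a median of 17.4 TPM. The kinase genes Csnk1a1, Prkaca and Gsk3b had medians of 39.1, 16.8 and 3.83 TPM. Csnk1a1 was even, from 31.3 to 41.9 TPM. Stk36 had 316, 13, 112 and 0 counts.

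Of 8 genes listed as targets in one tissue or another, 3 had a median above 1 TPM. The cyclin gene Ccnd2 had 33.3, 24.5, 21.4 and 28.1 TPM and Ccnd1 2.22, 4.14, 15.2 and 20.6 TPM. Bcl2 was counted in all 4 libraries, with 0.528, 11.5, 1.30 and 0.0106 TPM. Foxf2 had 7.48, 13.4, 0 and 0 TPM, Foxf1 reached 230 counts in mouse 3 with 1 count over the rest, and Pthlh, the hormone gene that Indian hedgehog maintains in cartilage, had 427 counts in mouse 1 and 0 in the others. Mycn had 1 count in all.

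**Figure D4:**
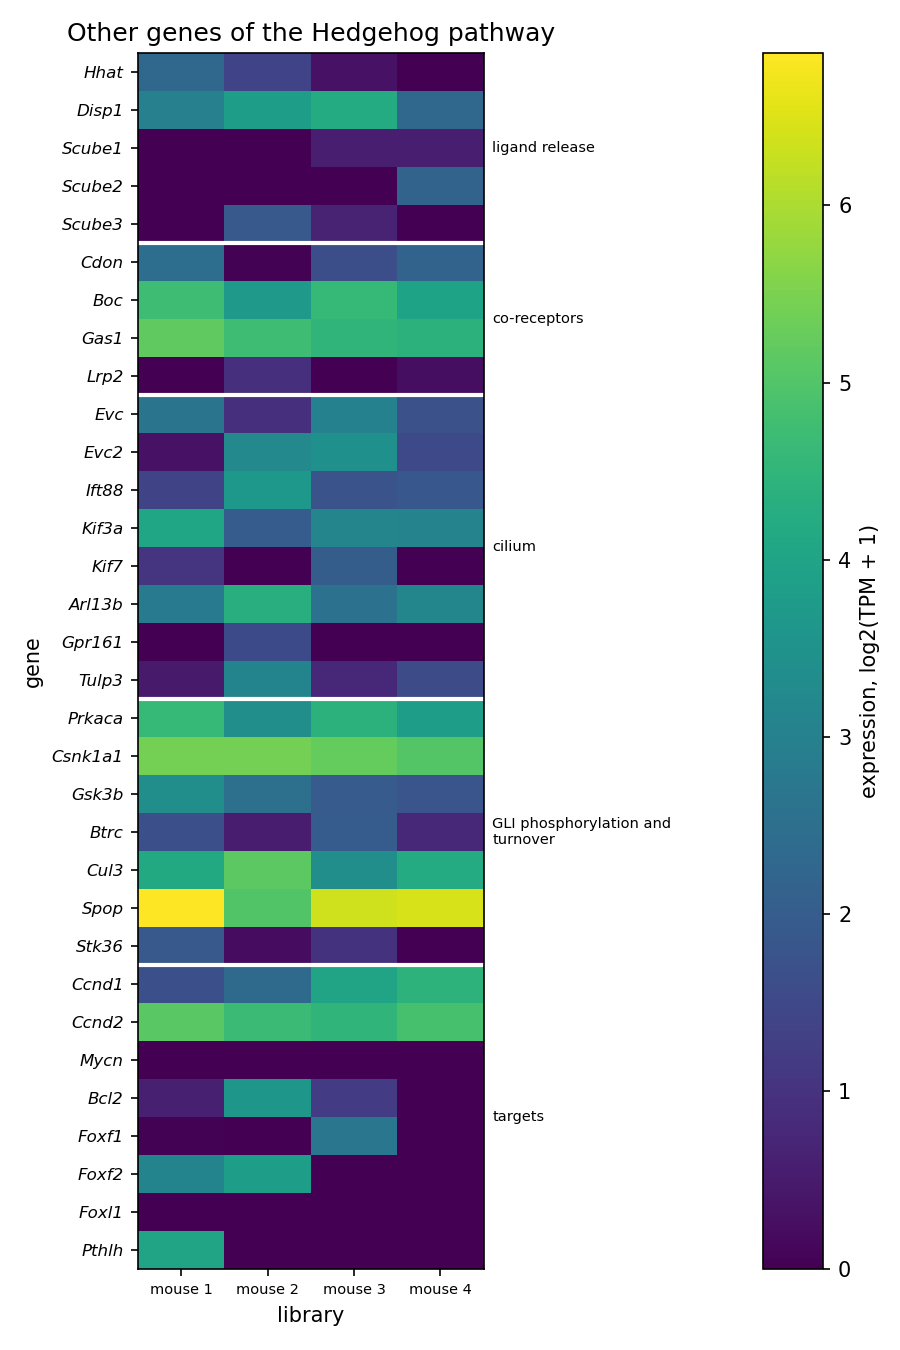
Levels of the 32 further pathway genes in log2(TPM + 1) (colour) in the library of each mouse, grouped by role. Disp1, Boc, Gas1, Csnk1a1, Spop and Ccnd2 are filled in all 4 libraries, while Scube1 to Scube3, Foxf1, Foxf2, Gpr161 and Pthlh are at or near 0 in 2 or 3 of them.

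In GENCODE M21 the exons of Ptch1, Smo, Sufu and Gli2 share no bases with another gene. Gli1 shares 1.24% of its exonic bases with Arhgap9 and 5.31% with the antisense RNA Gm47200. Arhgap9 had 1 count in all and Gm47200 none. Gli3 shares 1.96% with the opposite-strand Gm6556, counted 2, 0, 16 and 0 times. The counting parameters name no strand option, so sense and antisense reads were not separated. Stretches at least 95% identical to a transcript of another gene cover 8.97% of the longest Smo transcript, 6.58% of that of Gli1, 1.93% of that of Hhip, 1.43% of that of Ptch1, and none of those of Sufu, Gli2 and Gli3. For Gli1 and Hhip, whose exons overlap those of other genes, these may be the overlapping bases.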

How the data were processed

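The authors deposited raw counts per Ensembl gene, 1 column per mouse. Per the labels and the study's methods, read pairs were aligned to GRCm39 with STAR 2.7.10, overlapping mates were merged, and uniquely mapped pairs were counted on exons with featureCounts (Subread 1.6.5) and no strand option. Columns were joined to mice by sample code, and the values are whole numbers. TPM was computed from the counts with union exon lengths of GENCODE M21 on GRCm38, another build than that of the counts, under Python 3.11.15 (scipy 1.17.1, pandas 2.3.3, numpy 2.4.6). A gene whose exons differ between the builds has a TPM off by the ratio of its lengths. Of the listed genes, 4855 had no length and were left out. A gene was called expressed above a median of 1 TPM. Floors are 3 counts per library, and floors and Poisson intervals cover counting error only, since PCR copies are not independent molecules. Within-mouse differences used log2(TPM + 1). Their signs were flipped in all possible ways (exact permutation, two-sided), and the p-values of the 6 pairs were adjusted by Benjamini-Hochberg. The p-values take the 4 mice as units. Where all 4 differences share a sign the exact permutation p is 0.125, whatever the spread between mice. Near-identical transcripts were searched with BLAST 2.17.0, at 95% identity over at least 100 bases. Alternatives used edgeR 4.0.16 and DESeq2 1.42.0 for scaling factors only. The code was tested on simulated data. The 10 genes, the lists and the tests were chosen with earlier results of these data known. Some genes of the pathway and marker lists were left out of the lists after the values were seen, for reasons unrelated to their values, and are not reported here. Genes named in the text are the 10 genes and some, not all, of the pathway and marker lists. Genes closest to Gli1 in pattern were to be named only if it had 3 counts in every mouse, which it had in 2.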

Additional observations from a re-analysis of the deposited data

Results flagged for a closer look

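Of 50 values set side by side across the 4 mice, 10 had a single mouse far from the rest: its distance to the nearest value, as a share of the range, passed Dixon's 95% criterion for 4 samples. Chance flags about 1 in 20 groups of normally distributed values, which these are not. Of the 25563 genes with a count in any mouse, 38.5% passed the same criterion, and of the 14269 with a mean of at least 1 TPM, 18.2%, so such values are common in these libraries. A gene at 0 in the other 3 mice passes by construction, as Scube2, Gpr161, Mycn and Pthlh do here. Among the 10 Hedgehog genes this was so for Smo alone, with 22.8 TPM in mouse 2 where the other mice had at most 12.0 TPM (gap 0.901).

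Among the 32 further pathway genes it was so for 7, each high in one mouse. In mouse 2, Ift88 was 11.6 TPM against at most 2.66 TPM (gap 0.901), Bcl2 was 11.5 TPM against at most 1.30 TPM (gap 0.888), and Gpr161 was 1.91 TPM with 0 in the others (gap 1). Scube2 was 3.52 TPM in mouse 4 with 0 in the others (gap 1). Foxf1 was 5.51 TPM in mouse 3 against at most 0.0235 TPM (gap 0.996). In mouse 1, Pthlh was 15.0 TPM with 0 in the others (gap 1), and Mycn rested on 1 count (gap 1).

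Among the summed marker lists, the chondrocyte markers summed to 352 TPM in mouse 1 and at most 229 TPM elsewhere (gap 0.926). Col11a2 alone gave 345 TPM in mouse 1 and 214 to 228 TPM elsewhere, while Acan and Matn3 were at most 2.64 TPM and Col9a1 was highest in mouse 3, at 12.2 TPM. The macrophage markers summed to 6.63 TPM in mouse 3 and at most 0.497 TPM elsewhere (gap 0.925), all from Cd68, with Adgre1, Csf1r and C1qa at 0 counts in every mouse.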

How the results depend on the processing

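The number of the 10 genes past a median of 1 TPM was 6 under other lengths, scalings and denominators. It was 4 with a cutoff of 5 TPM, when every mouse had to pass 1 TPM and when every mouse needed 10 counts, and between 4 and 6 when each mouse was left out. Gli2 was lost without mouse 1 and without mouse 3, and Hhip without mouse 2 and without mouse 3. CPM uses no length and is another unit. It gave means of 28.5 for Ptch1, 10.2 for Hhip, 33.8 for Smo and 26.3 for Sufu. For Gli2 and Gli3 it gave 11.3 and 20.3, and none of these can be set against a mean in TPM. Leaving the 10 highest genes out of the denominator raises every level. The mean then moved by more than 1 SD for Ptch1, to 7.56 TPM, and for Smo, to 22.7 TPM. Gli2 minus Gli3 turned from -0.72 to 0.13 without mouse 2 and to 0.52 with mice 1 and 3 only, a pairing chosen after seeing the data; it ranged from -1.40 to 0.13 when each mouse was left out. The other 5 mean differences kept their direction under every alternative run, but those against Smo depended on gene length. As CPM, Ptch1 minus Smo shrank to -0.28 ± 0.55 and Sufu minus Smo to -0.52 ± 0.82, each less than its spread. The exact permutation p was then 0.5 and 0.375. With the longest transcript as length, Sufu minus Smo was -0.73 ± 0.76, with an exact permutation p of 0.25. Ptch1 had more counts than Smo in mice 3 and 4. Gli1 stayed at or below 0.132 TPM under these alternatives where TPM was kept, and the ligands at 0. No setting could bring a p below 0.125. No paired analysis was possible because with one group no sample has a partner in another; differences between genes were taken within mice.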
